A study of Mus musculus with 2 samples.

Results

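The genes that package DNA into chromatin were compared between the second polar body (PB2) and the zygote. They were taken from the deposited table by gene name: linker and core histones, histone variants, the H1foo gene of the oocyte, histone chaperones, and Slbp, which binds histone mRNA. The rule found 52 genes among the 11262 of the table, 30 histone genes and 22 genes of chaperones or Slbp. Both samples came from untreated C57BL/6 (C57BL/6N in the study's methods) mouse embryos in culture at the late one-cell stage. The zona pellucida was dissolved with acid Tyrode's solution, and PB2 was then detached from the zygote by pipetting in trypsin. Many PB2s, and likewise many zygotes, were pooled for 1 library each, so there is no replicate, the spread between samples is unknown and no test was run. Each difference below describes these 2 libraries.

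Nuclear DNA is wound around octamers of the core histones H2A, H2B, H3 and H4, and a linker histone of the H1 family sits where the DNA enters and leaves. Core histones made for S phase come from clustered genes whose mRNAs end in a stem-loop instead of a poly(A) tail, and SLBP binds that stem-loop. Replacement variants such as H3.3 and H2A.Z come from polyadenylated mRNAs and are placed on DNA outside replication. Chaperones carry histones to DNA, and after fertilization the maternal stock of histones and chaperones repackages the sperm genome as its protamines leave. The oocyte has a linker histone of its own, encoded by H1foo.

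Both libraries were made from poly(A) RNA that was amplified as full-length cDNA, which can shift the proportions of transcripts. The values are TPM, an abundance per transcript length on a fixed total per library. Histone mRNAs that lack a poly(A) tail enter such a library poorly, so for the S-phase genes a low level and poor capture cannot be told apart, and their TPM is not comparable with that of polyadenylated genes. TPM gives proportions, so less RNA per cell and a lower proportion of one transcript cannot be told apart. The reads behind a value are unknown. All 52 genes reached 1 TPM in at least 1 library and 51 did in both; Hist2h4, at 0.7 TPM in the zygote, was the exception. Differences are given as the log2 ratio, log2((PB2 TPM + 1)/(zygote TPM + 1)), which understates the differences of low genes. The 12 oocyte transcripts used to check the samples, among them Zp3, Gdf9 and Bmp15, had at least 5.9 TPM in both libraries. They include Npm2, itself 1 of the 52 genes. Past 2-fold were 4 of the 12 in PB2, 33.3%, and 1 in the zygote, 8.33%. Over all genes compared these shares were 18.9% and 8.09%. Of 12 cumulus and granulosa cell markers 4 were in the table. Their summed TPM was 76.4 in PB2 and 74.7 in the zygote, nearly all of it from Cyp19a1, and Cyp11a1 was listed at 0 in the zygote. Of 6 sperm markers 2 were in the table, and Prm2, a protamine, had 22.0 TPM in PB2 compared with 19.8 TPM in the zygote. The part of other cells in the values below was not tested.

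Of the 52 genes, 11 exceeded their zygote value in PB2 by 2-fold or more, and 2 were as far apart in the other direction. Over the 10645 genes compared these shares were 18.9% and 8.09%, against 21.2% and 3.85% of the 52 genes, so the share higher in PB2 was near the background. The median log2 ratio was 0.22 over the 52 genes and 0.21 over all genes compared. Higher in PB2 were Hist1h1e, Hist1h1c, H1f0, H2afj, H2afy, Hist2h4, Cabin1, Daxx, Chaf1a, Anp32b and Ssrp1, and higher in the zygote were H2afv and Hist1h4h. Relative to the median of all genes, 9 of the 52 genes were past 2-fold in PB2 and 5 in the zygote, the latter then with Hist1h2ba, Hist1h4c and Supt16. That centring took the split over all genes from 2009 against 861 to 1383 against 1291, or 13.0% and 12.1% of them. The 52 genes together took 2.09% of the total TPM of a library in PB2, compared with 1.76% in the zygote. Without H1foo these shares were 1.15% and 1.22%, so the higher total in PB2 came from that gene.

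**Figure D1:**
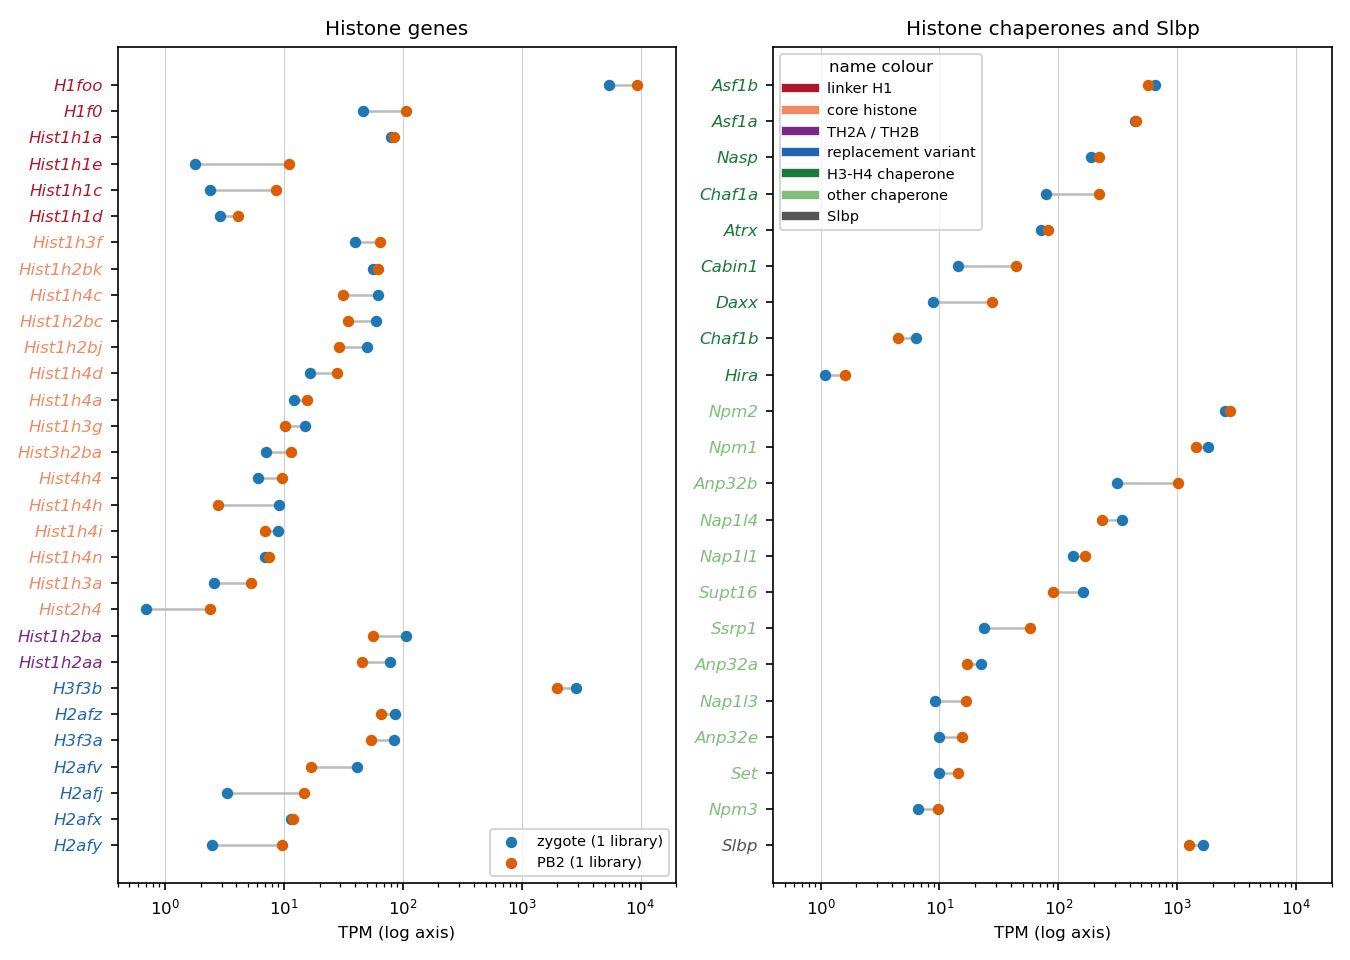
TPM of the 52 genes in the zygote (blue) and PB2 (orange), 1 library each, on a log axis; names are coloured by role. H1foo stands highest in both libraries, and H3f3b, Npm2, Npm1 and Slbp are the other genes above 1000 TPM in both.

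**Figure D2:**
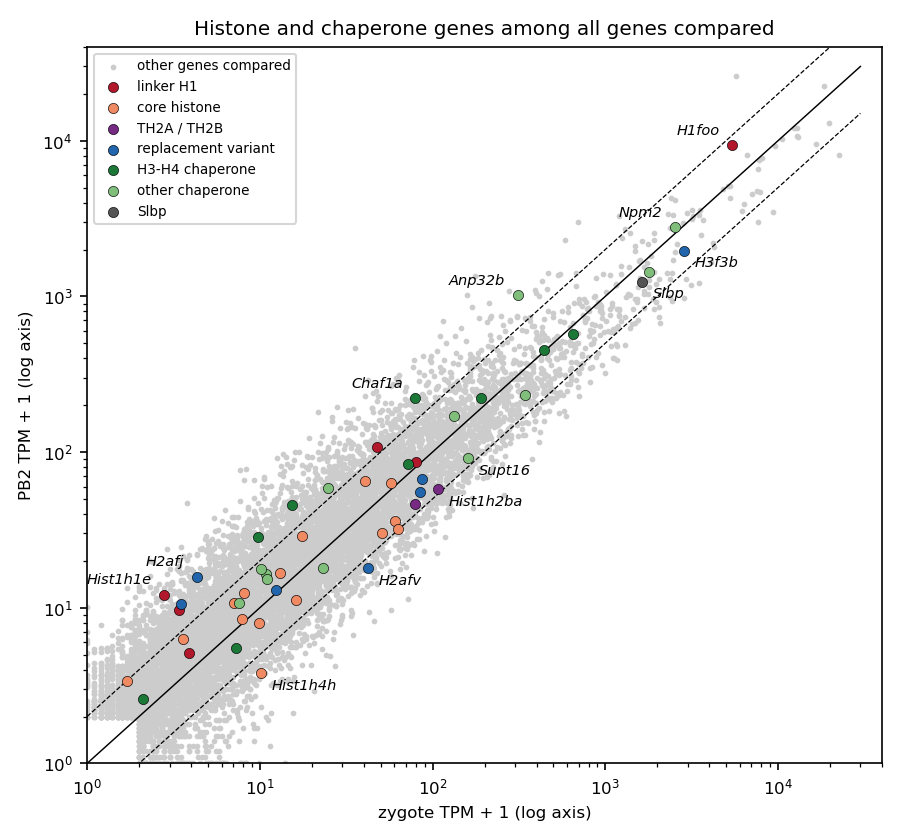
PB2 TPM + 1 against zygote TPM + 1 on log axes for all genes compared (grey) and the 52 genes (coloured by role); the solid line marks equal values and the dashed lines 2-fold. Anp32b, Chaf1a, Hist1h1e and H2afj lie above the upper dashed line, H2afv and Hist1h4h below the lower one.

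The linker histone genes were the group with the highest median, a log2 ratio of 0.98 over 6 genes. All 6 had a higher TPM in PB2, and of the 10645 genes compared 6298 had a log2 ratio above 0. Hist1h1a was lower once the ratios were centred on the median of all genes or the trend on GC content was removed. Past 2-fold in PB2 were 3 of the 6, or 50%, against 18.9% of all genes. None was past it in the zygote, against 8.09%. H1foo, the linker histone of oocytes and early embryos, had 9334.2 TPM in PB2 against 5428.3 TPM in the zygote. It ranked 10 of all genes in PB2 and 23 in the zygote. Its values were 1.72-fold apart, a log2 ratio of 0.78, under the 2-fold threshold. That log2 ratio was 0.57 after centring and 0.18 with the GC trend removed. H1foo (ENSMUSG00000042279) lies on the plus strand of chromosome 6 of GRCm38, from 115944938 to 115950236, and its longest coding transcript has 5 exons and 1122 nucleotides. It held 97.7% of the summed TPM of the 6 linker genes in PB2 and 97.6% in the zygote, so the makeup of this group, as captured in these libraries, was nearly the same in both.

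H1f0, the replacement linker histone of non-dividing cells, had 106.5 TPM in PB2 compared with 46.6 TPM in the zygote, 2.29-fold apart. Hist1h1a had 85 and 79.5 TPM. Among the clustered somatic genes, Hist1h1e had 11.1 TPM in PB2 against 1.8 TPM in the zygote. Its log2 ratio of 2.11 was the highest of the 52 genes and the one past 4-fold on the scale with the pseudocount. Rounding of the deposited values to 1 decimal allows any fold of Hist1h1e from 5.97 to 6.37. Of the 100-base stretches of its transcript 24.7% also occur in transcripts of other genes, among them Hist1h1c, Hist1h1d and the overlapping Hist1h2be. Hist1h1c had 8.6 TPM in PB2 compared with 2.4 TPM in the zygote, 3.58-fold apart. Hist1h1d had 4.1 and 2.9 TPM, a log2 ratio of 0.39.

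**Figure D3:**
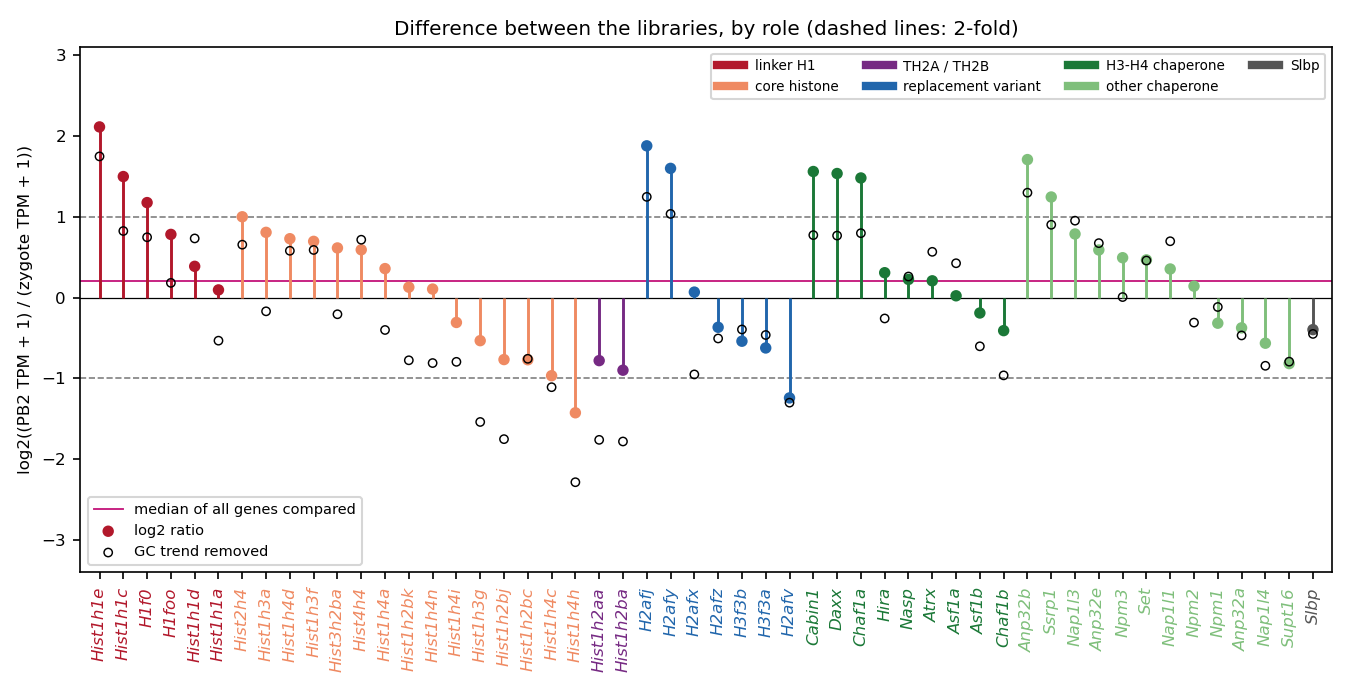
Log2 ratio of each of the 52 genes (filled points, coloured by role) and the same with the trend on GC content removed (open points); dashed lines mark 2-fold and the pink line the median of all genes compared, 0.21. The filled points of the linker genes lie above 0 and those of the H3.3 and H2A.Z genes below it, while those of the core histone genes spread to both sides.

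The stem-loop at the end of histone mRNAs is shown because it sets the S-phase genes apart in a library of poly(A) RNA. It was searched as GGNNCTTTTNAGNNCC on the transcript strand, after the coding sequence, using for each gene its longest coding transcript from GENCODE M21 (build GRCm38). It was found in 16 of the 52 genes, and in 24 of the 11221 genes of the table that have a coding transcript there, 0.214%. The transcripts of Hist1h2aa and Hist1h2ba have only 3 bases after the last codon before the stop, so this search could not find it. Other transcripts of a gene were not searched. The 16 genes carried 5 different sequences, starting 27 to 57 bases after the last codon before the stop. The H1, H2B and H3 genes had the sequences with T directly before CTTTT, and the H4 genes and H2afx those with C there. Representatives of each sequence follow with their flanks, 5′ to 3′ on the transcript strand, with the stem-loop in capitals:
Hist1h1e, chr13:23621777-23621802, minus strand: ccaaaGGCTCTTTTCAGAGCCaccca
Hist1h2bj, chr13:22043633-22043658, plus strand: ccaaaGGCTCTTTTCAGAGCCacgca
Hist1h2bk, chr13:22036295-22036320, plus strand: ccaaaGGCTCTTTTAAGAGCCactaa
Hist1h3f, chr13:23544927-23544952, plus strand: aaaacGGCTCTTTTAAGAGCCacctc
Hist1h4c, chr13:23698084-23698109, minus strand: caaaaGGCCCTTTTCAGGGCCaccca
Hist1h4h, chr13:23531453-23531478, plus strand: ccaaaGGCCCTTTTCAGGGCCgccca
Hist2h4, chr3:96262934-96262959, minus strand: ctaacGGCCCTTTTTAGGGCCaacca
H2afx, chr9:44335235-44335260, plus strand: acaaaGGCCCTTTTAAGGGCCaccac

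Genes that share a stem-loop could lie on opposite sides of 0. Hist1h1e and Hist1h2bj share the 16 bases in capitals, with log2 ratios of 2.11 and -0.77. The 5 genes with the stem-loop of Hist1h4c had log2 ratios from -1.42 to 0.73. Hist1h2bk and Hist1h3f, which share another, were both above 0, at 0.13 and 0.70, though Hist1h2bk was below it after centring or with the GC trend removed. The 11 genes whose transcript model runs more than 50 bases past the stem-loop had a median log2 ratio of 0.61, and the 5 whose model ends within 50 bases had one of 0.11. With the length trend removed these medians were 0.82 and 0.76, and with the GC trend removed 0.59 and -0.81, so the gap between them depended on the processing. The TPM of the 16 genes ran from 0.7 to 64.6.

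The 15 core histone genes had a median log2 ratio of 0.13, which turned to -0.76 with the GC trend removed. In each direction 1 of them, 6.67%, was past 2-fold, against 18.9% of all genes in PB2 and 8.09% in the zygote. They summed to 321.9 TPM in PB2 against 353.6 TPM in the zygote. Among the H4 genes, Hist1h4c had 31.2 TPM in PB2 compared with 61.9 TPM in the zygote, and it was the most abundant H4 gene in both. Its share of the summed TPM of the 8 H4 genes was 29.9% in PB2 and 50.6% in the zygote. Hist1h4d had 28.0 and 16.5 TPM, and Hist1h4a 15.8 and 12.1 TPM, so their shares went the other way. Hist1h4h had 2.8 TPM in PB2 against 9.2 TPM in the zygote, a log2 ratio of -1.42, the lowest of the 52 genes. Of its 100-base stretches 38.5% also occur in other H4 transcripts. With the length trend removed its log2 ratio was -0.79. Hist1h4i had 7.0 and 8.9 TPM, and Hist1h4n 7.5 and 6.9 TPM. Outside the large cluster on chromosome 13, Hist4h4 had 9.7 TPM in PB2 compared with 6.1 TPM in the zygote. Hist2h4 had 2.4 and 0.7 TPM, which puts it exactly on the 2-fold threshold with a log2 ratio of 1.00. Just outside the threshold in the other direction was Hist1h4c, with a log2 ratio of -0.97.

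The H2B genes of this group split by gene. Hist1h2bk had 62.1 TPM in PB2 against 56.7 TPM in the zygote. Hist1h2bj had 29.1 and 50.2 TPM, and Hist1h2bc 34.8 and 60.0 TPM, both with log2 ratios of -0.77. The coding sequences of Hist1h2bj and Hist1h2bk differ at 7 of 378 bases, and 40.1% and 70.8% of their 100-base stretches occur in another gene. Values of genes this alike are uncertain, since how the counting treated reads that match several genes is not given in the sources used here. Hist3h2ba, outside the cluster, had 11.4 TPM in PB2 compared with 7.1 TPM in the zygote. Among the H3 genes, Hist1h3f had 64.6 and 39.5 TPM, a log2 ratio of 0.70. Hist1h3g had 10.2 and 15.2 TPM, with 12 of 408 coding bases different from Hist1h3f. Hist1h3a had 5.3 and 2.6 TPM, a log2 ratio of 0.81 that ran from -0.17 with the GC trend removed to 1.39 with the length trend removed. Of the 15 core histone genes, 11 shared more than 10% of their 100-base stretches with another gene.

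**Figure D4:**
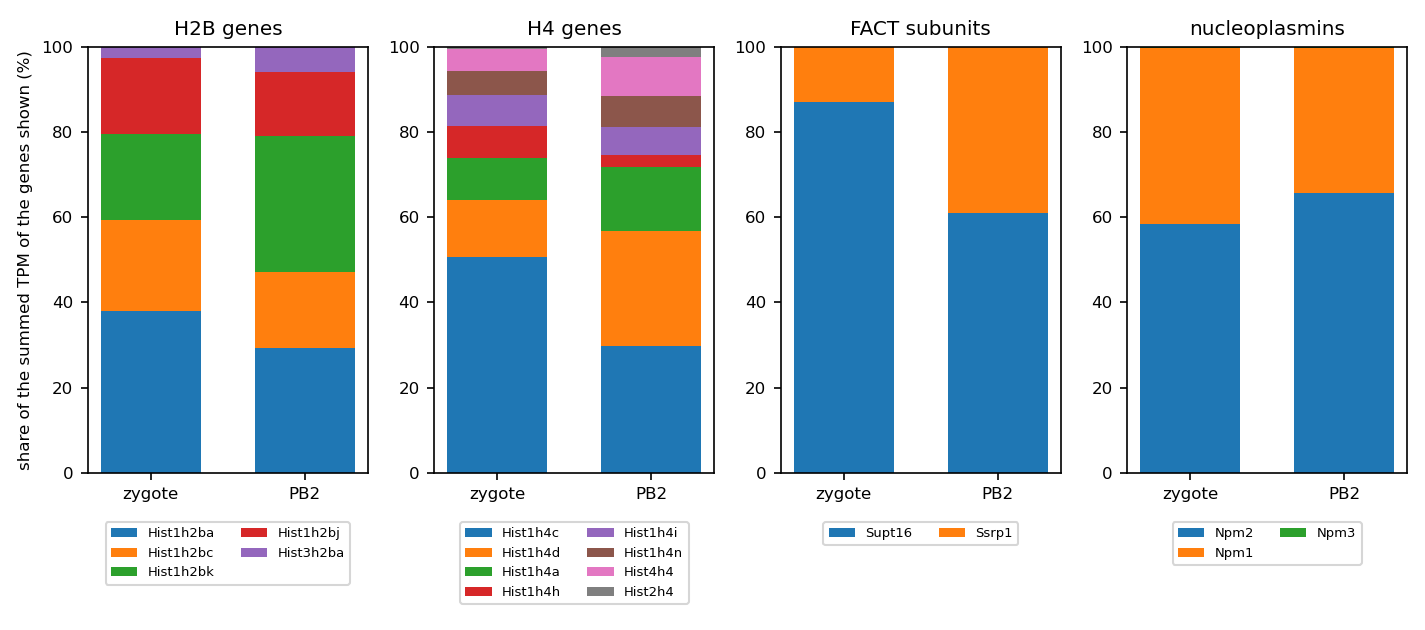
Share of each gene in the summed TPM of the H2B genes (5), the H4 genes (8), the FACT subunits (2) and the nucleoplasmins (3), in percent, for the zygote and PB2 libraries. Hist1h4c takes 50.6% of H4 in the zygote and 29.9% in PB2, and Supt16 87.0% and 61.0% of FACT.

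Hist1h2aa and Hist1h2ba encode TH2A and TH2B, variants of testis and oocyte, and were lower in PB2 by nearly the same amount. Hist1h2aa had 45.2 TPM in PB2 against 78.3 TPM in the zygote, a log2 ratio of -0.78. Hist1h2ba had 56.8 TPM in PB2 compared with 106.7 TPM in the zygote, a log2 ratio of -0.90. Hist1h2ba was 1.26 times as abundant as Hist1h2aa in PB2 and 1.36 times in the zygote, so their order was kept. Both stayed below 0 under each alternative, from -1.76 to -0.073 for Hist1h2aa and from -1.78 to -0.19 for Hist1h2ba. Their annotated transcripts, 390 and 384 bases, hold only the coding sequence and stop codon. The values with the GC or length trend removed rest on these short transcripts. Of the 100-base stretches of Hist1h2ba 27.4% occur in other H2B genes, Hist1h2bc, Hist1h2bj and Hist1h2bk among them. For Hist1h2aa 10.3% occur in another gene, so both values are uncertain. Hist1h2aa was the one H2A gene of the 52 that is no replacement variant. The pair is shown with its promoter because the annotated starts of the genes lie 280 bases apart on opposite strands. By RefSeq on GRCm38.p6, Hist1h2aa starts at 23934437 on the plus strand of chromosome 13 and Hist1h2ba at 23934156 on the minus strand. In GENCODE M21 the coding sequence of Hist1h2ba begins at that same base, so where its transcript starts is uncertain. The 300 bases shown run from 250 before to 50 after the start of Hist1h2aa. They take in most of the stretch between both annotated starts, though not the annotated start of Hist1h2ba itself. Capitals mark the CCAAT box, the TATA box searched as TATAAA, and the octamer motif searched as ATTTGCAT, each on either strand:
Hist1h2aa, chr13:23934187-23934486, plus strand: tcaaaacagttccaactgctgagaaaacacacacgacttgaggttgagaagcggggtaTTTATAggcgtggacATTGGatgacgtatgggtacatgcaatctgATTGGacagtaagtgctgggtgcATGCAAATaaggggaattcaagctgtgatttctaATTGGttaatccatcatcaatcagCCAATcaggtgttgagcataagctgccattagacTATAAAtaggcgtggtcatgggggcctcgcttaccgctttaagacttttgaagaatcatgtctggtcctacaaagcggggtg

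The CCAAT box occurred 4 times in this window, the TATA box 2 times and the octamer 1 time. Of the 32817 RefSeq promoters of the same length, 37.4% held the CCAAT letters, 13.6% those of the TATA box and 1.74% those of the octamer on either strand. These are matches of letters, and no binding was measured.

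Among the replacement variants, the H3.3 and H2A.Z genes were lower in PB2 and H2afj and H2afy higher. H3f3b, which encodes the H3.3 placed on DNA outside replication, had 1968.4 TPM in PB2 against 2861.2 TPM in the zygote, a log2 ratio of -0.54. H3f3a, the second H3.3 gene, had 54.2 and 84.0 TPM, a log2 ratio of -0.62. The log2 ratios of both were below 0 under each alternative that gave a value. Their coding sequences have 408 bases before the stop codon and are 76.7% identical. H3f3b held 97.3% of H3.3 TPM in PB2, compared with 97.1% in the zygote. Of the 100-base stretches of H3f3a 26.3% occur in other transcripts, the pseudogene H3f3a-ps1 among them, compared with 2.44% for H3f3b. The H3f3a values, and so these shares, are uncertain. Set against H1foo, H3f3b was less abundant by 4.74-fold in PB2 and by 1.90-fold in the zygote.

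H2A.Z, a variant found at promoters, is encoded by H2afz and H2afv. H2afz had 66.0 TPM in PB2 compared with 85.4 TPM in the zygote, a log2 ratio of -0.37, and 58.8% of its stretches occur in other transcripts, pseudogenes among them. H2afv had 16.9 TPM in PB2 against 41.3 TPM in the zygote, a log2 ratio of -1.24. It was past 2-fold under each of the 9 alternatives to the values or the filter. Those that change only the filter leave a log2 ratio as it was. H2afz was 3.91 times as abundant as H2afv in PB2 and 2.07 times in the zygote. H2afx, the variant phosphorylated at DNA breaks, had 12 and 11.4 TPM. H2afj had 14.8 TPM in PB2 compared with 3.3 TPM in the zygote, a log2 ratio of 1.88. H2afy, which encodes the large variant macroH2A1, had 9.6 and 2.5 TPM, a log2 ratio of 1.60. Both of these were past 2-fold under the same 9 alternatives, and both were of low abundance in the zygote.

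The 9 chaperones of H3 and H4 had a median log2 ratio of 0.22, near the 0.21 of all genes. Of them 3, or 33.3%, were past 2-fold in PB2, against 18.9% of all genes, and none was in the zygote, against 8.09%. The most abundant were the 2 ASF1 genes, whose proteins hand H3-H4 dimers to other chaperones. Asf1b had 571.4 TPM in PB2 against 652.0 TPM in the zygote, and Asf1a 449.4 and 442.4 TPM, so Asf1b led in both libraries. Of the Asf1a stretches 62.7% are shared with the overlapping Mcm9. Nasp, a storage chaperone of H3-H4, had 220.7 and 188.7 TPM. The subunits of CAF-1, the chaperone of DNA replication, went apart: Chaf1a had 220.2 TPM in PB2 compared with 78.3 TPM in the zygote, a log2 ratio of 1.48. Chaf1b had 4.5 and 6.3 TPM, a log2 ratio of -0.41. Chaf1a was 48.9 times as abundant as Chaf1b in PB2 and 12.4 times in the zygote. The longest Chaf1a transcript shares 42.5% of its stretches with the overlapping Ubxn6.

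Chaperones that place H3.3 differed widely in level. Hira, the subunit after which the HIRA complex is named, had 1.6 TPM in PB2 against 1.1 TPM in the zygote, the lowest level of the 22 genes. Of its stretches 62.8% are shared with the annotated gene Gm28539, so this low value is uncertain. Cabin1, of the same complex, had 44.4 TPM in PB2 compared with 14.4 TPM in the zygote, a log2 ratio of 1.56. Daxx, which works with Atrx at repeats and telomeres, had 27.4 and 8.8 TPM, a log2 ratio of 1.54. Atrx had 82.5 and 71.3 TPM, a log2 ratio of 0.21, equal to the median of all genes to 2 decimals. Atrx therefore exceeded Daxx by 3.01-fold in PB2 and by 8.10-fold in the zygote. With the GC trend removed the log2 ratios of Cabin1, Daxx and Chaf1a were 0.77, 0.77 and 0.80, under 2-fold.

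Among the other chaperones, Npm2 led. It encodes nucleoplasmin 2, the oocyte chaperone that helps sperm chromatin to decondense. Npm2 had 2793.1 TPM in PB2 against 2531.6 TPM in the zygote, a log2 ratio of 0.14 that turned to -0.31 with the GC trend removed and to -0.068 after centring. Npm1, the nucleophosmin of nucleoli, had 1442.9 and 1797.1 TPM, a log2 ratio of -0.32. Of its stretches 22.1% occur in other transcripts. Npm3 had 9.7 and 6.6 TPM. Npm2 made up 65.8% of the nucleoplasmin TPM in PB2, compared with 58.4% in the zygote. The acidic ANP32 family differed by gene. Anp32b had 1016.5 TPM in PB2 compared with 310.6 TPM in the zygote, a log2 ratio of 1.71. It was the most abundant of the 11 genes higher in PB2 and was past 2-fold under the 9 alternatives. Anp32a had 16.9 and 22.2 TPM. Anp32e, which removes H2A.Z from nucleosomes, had 15.4 and 9.9 TPM.

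FACT, which loosens H2A-H2B ahead of polymerases, is a dimer of the proteins of Ssrp1 and Supt16, and these genes lay on opposite sides. Ssrp1 had 58.0 TPM in PB2 against 23.9 TPM in the zygote, a log2 ratio of 1.24. Supt16 had 90.6 TPM in PB2 compared with 160.3 TPM in the zygote, a log2 ratio of -0.82. Supt16 exceeded Ssrp1 by 1.56-fold in PB2 and by 6.71-fold in the zygote. The opposite signs held under each of the 9 alternatives, and 19.4% of the Supt16 stretches are shared with the overlapping Rpgrip1. The NAP1 family, carriers of H2A-H2B, stayed under 2-fold. Nap1l4 had 230.8 and 341.7 TPM, Nap1l1 169.0 and 132.0 TPM, and Nap1l3 16.6 and 9.2 TPM. Set, a chaperone and inhibitor of the phosphatase PP2A, had 14.2 and 10 TPM, and 34.0% of its stretches occur in other transcripts. Slbp, whose protein binds the stem-loops shown above, was abundant, with 1244.5 TPM in PB2 against 1637.7 TPM in the zygote, a log2 ratio of -0.40.

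The log2 ratio of all genes moved with the GC content of their transcripts, with a Spearman's rho of 0.44 over 10606 genes, and the part of GC content in the values above was not tested. Over the 52 genes rho was 0.081, over the 30 histone genes -0.034 and over the 22 others 0.32, given as descriptions since genes of 1 pair of libraries share their source. The 10 genes with a GC content of at least 57% were all histone genes, 9 of them 384 to 614 nucleotides long and H2afx 1384. Their log2 ratios ran from -1.42 to 0.81, while the bin of all genes highest in GC content, of 10 bins with equal numbers of genes, had a median of 0.93. With the GC trend removed the median of the histone genes was -0.43, and with the trend on transcript length removed it was 0.40, so its sign depended on which was taken out. With the GC trend removed 4 of the 11 genes higher in PB2 stayed past 2-fold, Anp32b, H2afj, H2afy and Hist1h1e, and no other gene of the 52 was. In the zygote 7 genes were past 2-fold, each of them a histone gene. Over all genes these shares were 9.08% and 11.0%, against 7.69% and 13.5% of the 52 genes, both near the background.

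**Figure D5:**
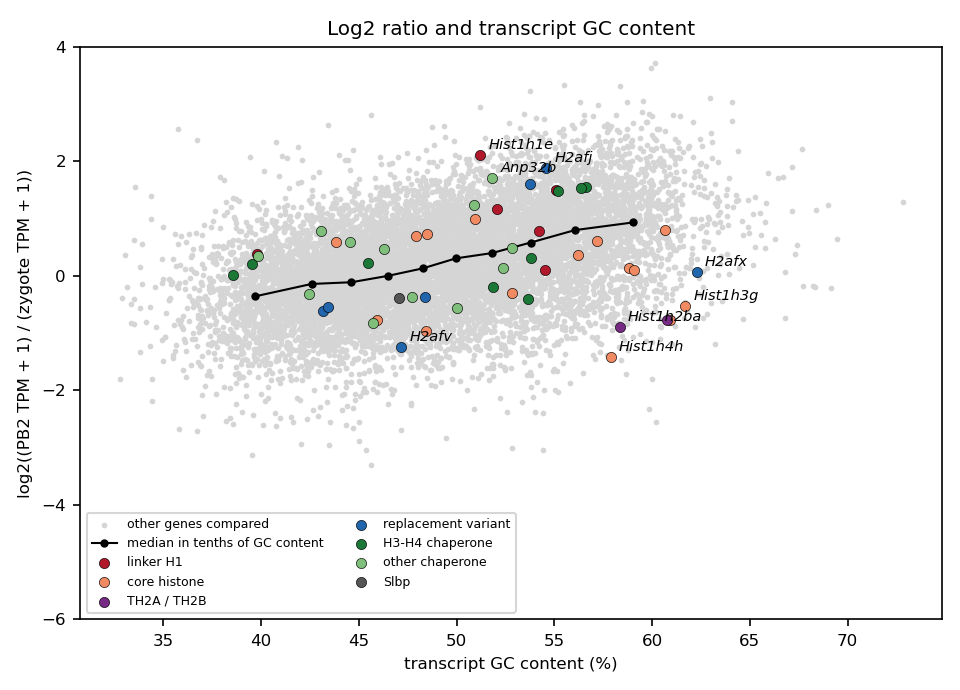
Log2 ratio against transcript GC content in percent for all genes compared (grey) and the 52 genes (coloured by role); the black line joins the medians in 10 bins of GC content. The line climbs from -0.36 to 0.93, while Hist1h4h, Hist1h2ba, Hist1h3g and H2afx lie well below it at high GC content.

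Of 53 further genes of histone mRNA processing, histone import, variant exchange and chromatin assembly, 48 were in the table, 13 of them past 2-fold in PB2 and 4 in the zygote. These are 27.1% and 8.33%, against 18.9% and 8.09% of all genes compared. Their median log2 ratio was 0.36, compared with 0.21 over all genes. With the GC trend removed these medians were 0.17 and 0.0099. Among genes of histone mRNA processing and decay, Lsm11, a subunit of the U7 particle that cuts histone mRNA, had 19.1 TPM in PB2 compared with 5.5 TPM in the zygote. Lsm10, the partner of Lsm11 there, had 235.7 and 347.5 TPM. Sympk, a scaffold of the cleavage machinery, had 6.7 and 0.6 TPM. Upf1, a helicase of mRNA decay, had 23.2 and 5.1 TPM, and Tut1, a terminal uridylyltransferase, 70.8 and 12.1 TPM. Zfp473, a U7 zinc finger protein, had 0.8 and 2.9 TPM. Ipo9, an importin, had 17.6 TPM in PB2 against 6.3 TPM in the zygote. For H3 and H4, Ubn1, of the HIRA complex, had 100.9 TPM in PB2 against 26.8 TPM in the zygote. Mcm2, a helicase subunit that also binds H3-H4, had 59.5 and 15.2 TPM, Tonsl 19.7 and 7.2 TPM, Mms22l 23.1 and 10.9 TPM, and Hjurp, the chaperone of CENP-A, 131.3 and 63.5 TPM. Hat1, which acetylates new H4, had 27.3 TPM in PB2 compared with 117.4 TPM in the zygote, a log2 ratio of -2.06. Rbbp7, its partner, was the most abundant of these genes, with 3280.9 and 3201.8 TPM.

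Genes that exchange H2A.Z split too. Vps72 had 173.7 TPM in PB2 against 72.0 TPM in the zygote, Ep400 53.4 and 24.5 TPM and Ruvbl2 422.8 and 164.3 TPM. Ruvbl1, which forms a ring with the protein of Ruvbl2, had 16.9 TPM in PB2 compared with 45.1 TPM in the zygote, a log2 ratio of -1.36, and Actl6a 33.8 and 70.6 TPM. Yeats4 had 357.9 and 216.7 TPM, under 2-fold. Outside H2A.Z exchange, Dnajc9 had 267.3 and 309.0 TPM and Hmgb1 201.7 and 302.2 TPM, each also under 2-fold.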

How the data were processed

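PB2 and zygotes of mouse embryos were sequenced as 1 library each. The authors deposited TPM values, rounded to 1 decimal, in a table of genes. According to the submitters' processing notes and the methods, bases were called with CASAVA, reads aligned with HISAT2 2.0.4, counted with HTSeq 0.6.1p1 and normalized with DESeq2 1.18.1. The builds named are OryCun2.0, of the rabbit, and GRCm38, while the identifiers are of mouse. How TPM was computed, and on which gene lengths, is not given in the sources used here, and the depth of the libraries is unknown. Both value columns were matched to samples by name, and 0 were left over.

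The 52 genes were taken by name, and each is given with both values, since each has at least 1 TPM in a library. Of the further genes, those at least 2-fold apart and the 6 with the highest TPM are named. The genes, lists and alternatives were chosen with earlier results of these data known. The log2 ratio used a pseudocount of 1, over genes with at least 1 TPM in either library, and 2-fold or more was counted, with no test. Positions, lengths, GC content and shared stretches of 100 bases came from the longest coding transcript in GENCODE M21 (GRCm38), found for 11221 genes of the table, and promoters from RefSeq (GRCm38.p6). Trends were removed with loess (span 0.3), tested on simulated data with a straight GC trend. Removal of the length trend was not tested, nor was removal for short transcripts of high GC content taken alone. Alternatives were pseudocounts of 0.1 and 0.01, no filter, a filter at 5 TPM, scaling of the zygote by the median ratio, rescaling after dropping genes of the mitochondrial genome and the top 50 by TPM, removal of the GC or length trend, centring on the median, and thresholds of 1.5-fold and 4-fold. Loess came from statsmodels 0.14.6 and correlations from scipy 1.17.1, with tables in pandas 2.3.3 on numpy 2.4.6, figures in matplotlib 3.10.9 and scripts in Python 3.11.15.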

Additional observations from a re-analysis of the deposited data

How the results depend on the processing

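No paired analysis was possible because each group has 1 library. Counts within 1.5 times, medians within 0.25 and log2 ratios of a gene within 0.5 of the reported value were treated as unchanged. Of the 52 genes, 38 kept the sign of their log2 ratio under each of the 9 alternatives to values or filter that gave them a value, 21 above 0 and 17 below. For 6 of the 52 genes, H1foo, H3f3b, Npm2, Hira, Hist1h1d and Hist2h4, 8 gave one. Anp32b, H2afj, H2afy, Hist1h1e and H2afv, 5 of the 13 genes past 2-fold, stayed past it under all 9. No filter and the filter at 5 TPM could change neither sign nor size, since they leave a log2 ratio as it was. With the GC trend removed 4 genes were past 2-fold in PB2 and 7 in the zygote, the median of the 52 genes was -0.19 and that of the histone genes -0.43. With the length trend removed the median of the histone genes was 0.40 and that of the chaperones -0.010. After centring 5 genes were higher in the zygote and the median of the histone genes was -0.092. These 3 alternatives also centre the ratios, and beyond that the cause was not tested. A threshold of 1.5-fold gave 19 genes in PB2 and 9 for the zygote, one of 4-fold 1 and 0. The shares over all genes were not computed at these thresholds, so these counts have no background to be set against. Without a record of depth, counting error limits the genes of a few TPM, such as Hira, Hist2h4 and Hist1h1d, by an unknown amount. Of 462 log2 ratios of single genes under these alternatives 34, from 23 genes, moved: 21 with the GC trend removed, 10 with the length trend removed and 3 with a smaller pseudocount. The 462 include ratios that could not move. No filter and the filter at 5 TPM leave each ratio as it was, and centring shifts each by 0.21, under the limit of 0.5. Scaling the zygote by 1.06 also stays under that limit. The share that moved therefore understates how far the ratios depend on the processing.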
